A study of Mus musculus with 8 samples.

Results

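The SLC25 family holds the carrier proteins that move nucleotides, phosphate, carboxylates, amino acids, cofactors and metals across the inner mitochondrial membrane. Its genes were measured here in old mouse muscle that does or does not carry a mutant mitochondrial DNA helicase. Members were the protein-coding genes of the deposited table whose symbol in GENCODE M21 starts with Slc25a. Of 47 such genes, 4 were left out by the rule and are not analysed here, which left 43 of the 48328 genes in the table. Of these 43, 31 reached 1 FPKM (fragments per kilobase of transcript, scaled to the mapped fragments of the library) in at least 4 libraries and were tested among 10521 genes. The other 12 did not reach that level.

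The samples were 4 libraries from K320E-skm and 4 from wild-type mice, all C57BL/6J, aged 24 months, and total RNA came from tibialis anterior, a hindlimb muscle made mostly of fast fibres. Twinkle is the helicase that opens mitochondrial DNA during replication, and the K320E-skm animals express in skeletal muscle a K320E version that acts dominantly. The labels do not name the promoter that confines it to skeletal muscle, nor any treatment. In each genotype 2 libraries were labelled male and 2 female. The question put to the family was whether its transcripts differ between old muscle with and without the mutant helicase.

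Each SLC25 carrier is built from repeated pairs of membrane-spanning helices and binds its substrate in a central cavity that opens to one side of the membrane at a time. The family sets the traffic that oxidative phosphorylation needs, such as ADP and phosphate entering and ATP leaving. It also runs the malate-aspartate shuttle, which brings reducing equivalents from glycolysis into mitochondria, and supplies the matrix with coenzyme A, NAD, folate, glutathione and iron. In muscle, a few carriers of energy metabolism are abundant and many others serve tissues such as liver, kidney, brain or testis.

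The libraries held 10167 to 11581 genes at 1 FPKM or more, with FPKM sums of 731824 to 858029. Read counts were not used here and absolute depth is unknown, and steps among very low values gave relative depths of 1.00 to 1.31. Twnk, the gene for Twinkle, averaged 4.62 ± 0.557 FPKM over the K320E-skm libraries, against 2.37 ± 0.245 FPKM over the wild-type libraries (SD, n = 4 each), with no overlap. The library K320E-skm 4 is labelled male, yet Xist was at 10.2 FPKM and Ddx3y at 0.0117 FPKM in it, so its sex label goes against its transcripts. The members' fold changes that move most without this library are given with and without it. The 2 mitochondrial ribosomal RNAs took 41.5% to 46.9% of the FPKM sum in K320E-skm libraries, against 31.2% to 37.5% in wild-type libraries, and the median log2 fold change over all tested genes was −0.14. The part of these RNAs in the shift was not tested. Myofibre markers (4 of 5 in the table) summed to 22123 to 28429 FPKM over the K320E-skm libraries, against 28292 to 30126 FPKM over the wild-type libraries. The 5 fast fibre markers summed to 4521 to 6014 FPKM over the K320E-skm libraries, against 6705 to 8003 FPKM over the wild-type libraries, without overlap. The largest of them, Pvalb, was at 2114 to 3839 FPKM in K320E-skm and 3715 to 5395 FPKM in wild-type libraries. Actn3 was at 597 to 1038 FPKM in K320E-skm and 1083 to 1179 FPKM in wild-type libraries, without overlap. Mybpc2 was at 399 to 602 FPKM in K320E-skm and 590 to 714 FPKM in wild-type libraries. The markers did not move as one. Myh1 was at 502 to 1539 FPKM in K320E-skm and 607 to 1189 FPKM in wild-type libraries. Myh2 was at 32.8 to 301 FPKM in K320E-skm and 83.6 to 194 FPKM in wild-type libraries. The highest values of both were in K320E-skm libraries. The part of fibre content in the results was not tested. In bulk muscle, fewer cells of a type and less RNA per cell cannot be told apart.

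The start regions of 3 carriers are shown because Slc25a5 and Slc25a39 had the smallest p among the members that were higher in K320E-skm muscle, and Slc25a25 had the widest range between libraries. Each is the 250 bases before a RefSeq start (GRCm38.p6), read 5′ to 3′ on the gene's strand. They are Slc25a5 on chromosome X (plus strand), Slc25a39 on chromosome 11 (minus strand) and the one of 3 Slc25a25 starts, on chromosome 2 (minus strand), that holds a cyclic AMP response element. The windows are chrX:36795347-36795596, chr11:102407518-102407767 and chr2:32424067-32424316. The last 2 lie inside the longer gene spans of GENCODE M21. Capitals mark the GC box GGGCGG or its reverse complement CCGCCC, which binds Sp1-type factors, and the cyclic AMP response element TGACGTCA.
Slc25a5: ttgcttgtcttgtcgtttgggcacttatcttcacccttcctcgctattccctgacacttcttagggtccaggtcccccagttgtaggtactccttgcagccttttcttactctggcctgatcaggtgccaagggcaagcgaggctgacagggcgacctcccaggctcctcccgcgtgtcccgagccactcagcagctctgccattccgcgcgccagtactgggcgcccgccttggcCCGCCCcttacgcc
Slc25a39: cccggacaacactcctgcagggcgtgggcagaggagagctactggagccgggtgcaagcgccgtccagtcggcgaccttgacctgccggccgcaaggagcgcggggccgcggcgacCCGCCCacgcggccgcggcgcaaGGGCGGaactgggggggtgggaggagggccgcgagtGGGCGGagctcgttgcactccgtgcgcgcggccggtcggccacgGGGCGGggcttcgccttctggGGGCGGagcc
Slc25a25: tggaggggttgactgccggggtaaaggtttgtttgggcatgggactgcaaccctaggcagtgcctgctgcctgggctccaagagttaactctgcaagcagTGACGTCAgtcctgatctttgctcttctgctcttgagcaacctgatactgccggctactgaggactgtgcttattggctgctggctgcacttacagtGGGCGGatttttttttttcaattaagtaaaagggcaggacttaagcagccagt

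The Slc25a5 window held 1 GC box, the Slc25a39 window 5, and the Slc25a25 window 1 GC box and 1 cyclic AMP response element. Their GC contents were 61.6%, 77.2% and 51.6%. RefSeq windows were found for 22 of the 31 tested members, 28 windows in all, and not for Slc25a27. The GC box, on either strand, was in 22 of these 28 windows (78.6%) and in 32.7% of all 32851 windows. All windows were counted, whether or not their genes passed the FPKM filter, so the 2 shares are not of like genes. The median GC content was 58.0% over the 28 windows and 52.4% over all windows. The element TGACGTCA was in 1 of 28 (3.57%) and in 1.55% of all windows, and the binding motif of NRF1 was in 1 of 28, that of Slc25a3, and in 3.74% of all. Neither the ATF4-type motif TGATGNAA (3.45% of all windows) nor the ERR-type motif TNAAGGTCA (1.14%) was in any of the 28. These matches describe letters in a window and no binding was measured.

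Levels of the family spanned a wide range, and a few carriers of energy metabolism made up most of it. Slc25a3, the phosphate carrier, was the highest, followed by Slc25a12, Slc25a11, Slc25a25 and Slc25a5. These 5 genes took 79.4% to 81.1% of the FPKM sum of all 43 members in K320E-skm libraries and 75.0% to 82.4% in wild-type libraries. That sum was 515 ± 35.1 FPKM over the K320E-skm libraries, against 500.5 ± 80.7 FPKM over the wild-type libraries (SD, n = 4 each), so the genotypes differed by less than the spread between libraries. The lowest sum, 382 FPKM, was that of wild-type 2, and the others lay between 482 and 563 FPKM. Only 7 of the 31 tested members averaged 10 FPKM or more, and 20 averaged under 5 FPKM.

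**Figure D1:**
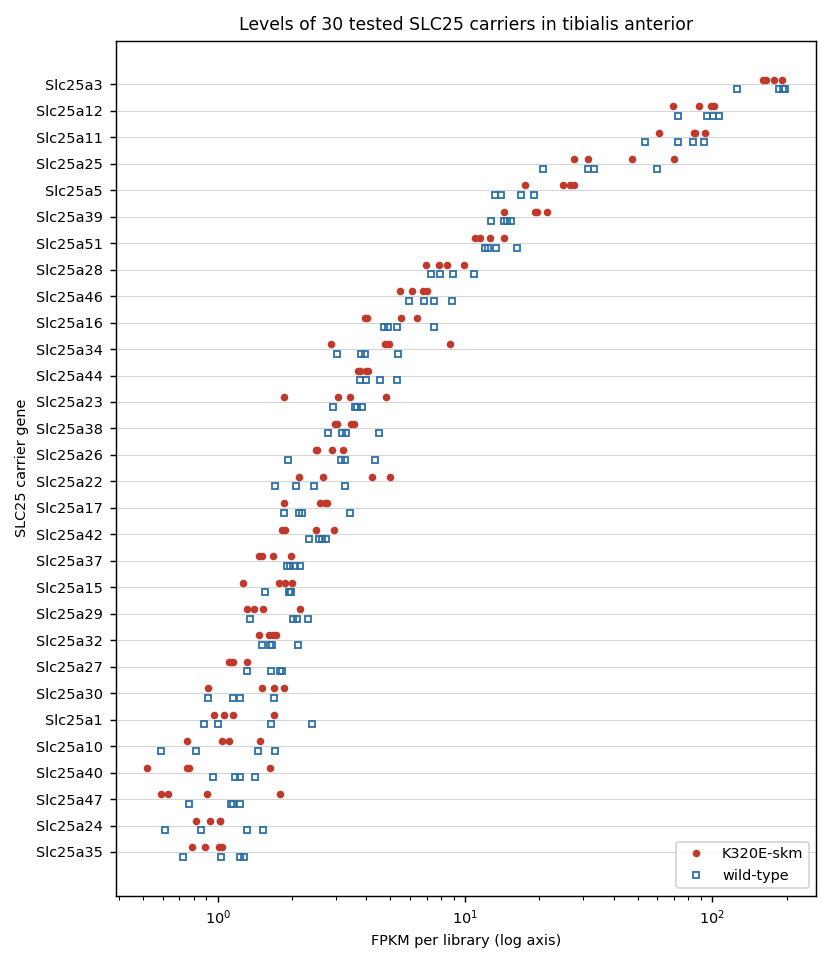
FPKM of 30 tested SLC25 carriers in each library on a log axis, ordered by mean, with filled circles for 4 K320E-skm and open squares for 4 wild-type libraries. Slc25a3 sits at 126 FPKM or above in all libraries, while 20 carriers average under 5 FPKM and the genotypes overlap for all but Slc25a27.

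No SLC25 member passed the adjusted threshold. Of the 31 tested members, 0 had a Benjamini-Hochberg adjusted p under 0.05 in limma, where 0.019% of all tested genes did, and the smallest adjusted p of a member was 0.315. At an unadjusted p under 0.05, 2 of 31 (6.45%) were higher in K320E-skm muscle, Slc25a5 and Slc25a39, against 1.12% of all tested genes. At the same p, 1 of 31 (3.23%) was lower, Slc25a27, against 12.0% of all tested genes. No member lay higher in K320E-skm muscle without overlap between the genotypes (0.333% of all tested genes), and 1 lay lower without overlap (9.59% of all), again Slc25a27. The median log2 fold change, on the log2(FPKM + 1) scale used throughout, was −0.07 over the 31 members and −0.14 over all tested genes. By sign, 9 members were above 0 and 22 below, where 79.5% of all tested genes were below 0, and 24 of 31 lay above the median gene.

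These counts depended on how the libraries were scaled. After median-ratio rescaling, which brings the libraries to a common level, the median was 0.04 over the 31 members and 0.00 over all tested genes, and 22 members were above 0 and 9 below. Then 3 of 31 (9.68%) were higher at an unadjusted p under 0.05, against 5.19% of all tested genes, and 0 were lower, against 4.66%. Without overlap, 2 were higher, against 2.91% of all, and 0 were lower, against 2.98%. All 31 members moved up under this rescaling, and small negative values changed sign, such as those of Slc25a12 and Slc25a51.

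**Figure D2:**
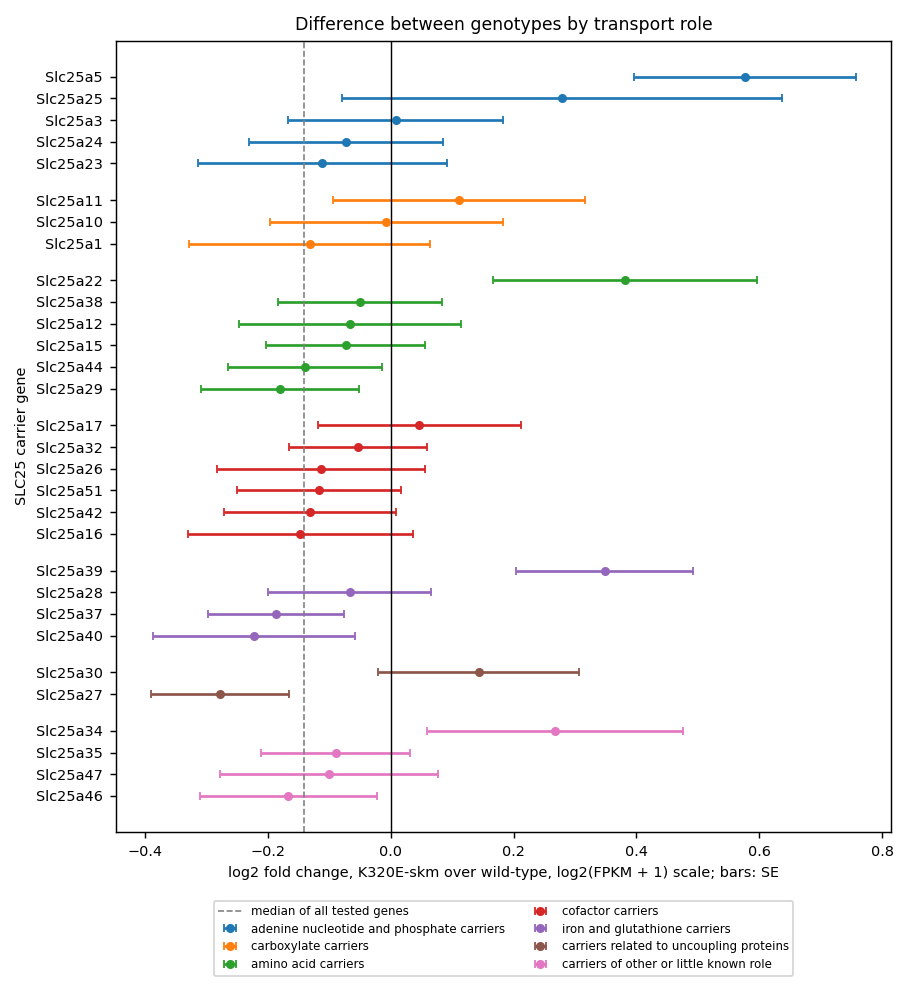
Log2 fold change of K320E-skm over wild-type on the log2(FPKM + 1) scale for 30 tested carriers, grouped by transport role, with bars for the standard error, a solid line at 0 and a dashed line at the median of all tested genes (−0.14). Slc25a5 stands furthest to the right at 0.58 and Slc25a27 furthest to the left at −0.28.

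Among the adenine nucleotide and phosphate carriers, 5 of 7 members were tested. At an unadjusted p under 0.05, 1 was higher (1.12% of all tested genes) and 0 were lower (12.0% of all). That gene was Slc25a5 (ENSMUSG00000016319, chromosome X, 36795651 to 36798807, GRCm38), an ADP/ATP carrier of dividing and many non-muscle cells that exchanges cytosolic ADP for matrix ATP. It was at 26.6, 25.0, 27.6 and 17.4 FPKM across K320E-skm 1 to 4, and at 19.0, 13.3, 16.8 and 14.0 FPKM across wild-type 1 to 4. K320E-skm 1, 2 and 3 lay above every wild-type library, and K320E-skm 4 lay below wild-type 1. Means were 24.1 ± 4.59 FPKM for K320E-skm and 15.8 ± 2.63 FPKM for wild-type (SD, n = 4 each), a ratio of 1.53, with a log2 fold change of 0.58 (SE 0.18, unadjusted p = 0.0103, limma adjusted p = 0.315). The exact permutation p of the difference in means was 0.0571, where the smallest possible with 4 against 4 libraries is 0.0286. With each library left out in turn the unadjusted p stayed under 0.05, between 0.000605 and 0.0380. Leaving out K320E-skm 4 gave 0.76 (SE 0.15, limma adjusted p = 0.330), with no overlap. Fragments from close copies of this gene may have been divided among them, so its level is uncertain.

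Markers of macrophages were not even across the libraries in which Slc25a5 was high. The 4 macrophage markers Cd68, Adgre1, Csf1r and C1qa, all detected, summed to 33.7, 29.0, 25.0 and 11.6 FPKM across K320E-skm 1 to 4, against 35.8, 22.9, 10.02 and 9.83 FPKM across wild-type 1 to 4. K320E-skm 4 had the lowest sum and the lowest Slc25a5 of its genotype, but K320E-skm 3, the highest for Slc25a5, had only the third sum. Wild-type 1 had the highest sum and the highest Slc25a5 of its genotype, but wild-type 2, with the next sum, was the lowest for Slc25a5. The part of these cells in the Slc25a5 difference was not tested. The 4 endothelial markers summed to 28.3 to 35.5 FPKM over the K320E-skm libraries, against 32.1 to 41.9 FPKM over the wild-type libraries.

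Slc25a3 (ENSMUSG00000061904, chromosome 10, 91116574 to 91124059), which brings phosphate into the matrix for ATP synthesis, was at 161, 192, 178 and 166 FPKM across K320E-skm 1 to 4, and at 194, 126, 196 and 186 FPKM across wild-type 1 to 4. Apart from wild-type 2, which was far below, the libraries lay close together and the genotypes overlapped. The log2 fold change was 0.01 (SE 0.18, limma adjusted p = 0.985), and without wild-type 2 it was −0.16 (SE 0.14). A small nucleolar RNA gene, Gm24119, lies inside the span of Slc25a3 on the same strand and averaged 179 FPKM, so fragments shared between them could affect the level.

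The ATP-magnesium/phosphate carriers, which adjust the adenine nucleotide pool of the matrix and most of which respond to cytosolic calcium, differed widely in level. Slc25a25 (ENSMUSG00000026819, chromosome 2, 32414487 to 32451445) was at 70.2, 47.2, 31.4 and 27.7 FPKM across K320E-skm 1 to 4, and at 33.2, 20.7, 31.4 and 60.1 FPKM across wild-type 1 to 4. Its range between libraries was 3.38-fold, the widest of the 31 members, and the high values were in 2 K320E-skm libraries and 1 wild-type library. The log2 fold change of 0.28 (SE 0.36, limma adjusted p = 0.729) was within this spread, and without K320E-skm 1 it was −0.016. The paralogs Slc25a23, at 3.29 ± 1.22 FPKM over the K320E-skm libraries, against 3.50 ± 0.390 FPKM over the wild-type libraries, and Slc25a24, at 0.947 ± 0.0978 FPKM for K320E-skm and 1.08 ± 0.418 FPKM for wild-type (SD, n = 4 each), were far lower. Their log2 fold changes were −0.11 and −0.07 (SE 0.20 and 0.16). The fourth of this group, Slc25a41, was listed at 0 in all 8 libraries, and Slc25a31, the testis ADP/ATP carrier, stood at 0 in each of 4 K320E-skm libraries and did not exceed 0.0372 FPKM in wild-type muscle.

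Of the carboxylate carriers, 3 of 4 were tested and none had an unadjusted p under 0.05. Slc25a11 (ENSMUSG00000014606, chromosome 11, 70644196 to 70647479), which exchanges oxoglutarate for malate in the malate-aspartate shuttle, was at 61.1, 93.8, 84.3 and 85.0 FPKM across K320E-skm 1 to 4, and at 73.0, 53.5, 83.3 and 92.6 FPKM across wild-type 1 to 4. The genotypes overlapped, with a log2 fold change of 0.11 (SE 0.21, limma adjusted p = 0.812) that was −0.09 without wild-type 2. Slc25a1, the citrate carrier that exports acetyl units for lipid synthesis, was at 1.70, 0.964, 1.16 and 1.07 FPKM across K320E-skm 1 to 4, against 2.41, 1.65, 0.882 and 1.00 FPKM across wild-type 1 to 4. Slc25a10, the dicarboxylate carrier, was at 1.11, 1.04, 0.750 and 1.49 FPKM across K320E-skm 1 to 4, against 1.70, 1.45, 0.590 and 0.816 FPKM across wild-type 1 to 4. In wild-type muscle both genes were highest in libraries 1 and 2. The 4 adipocyte markers Adipoq, Plin1, Cidec and Lep summed to 36.3 and 43.0 FPKM in those 2 libraries, to 2.67 and 9.99 FPKM in wild-type 3 and 4, and to 6.10 to 11.2 FPKM in K320E-skm libraries. Other markers divided these libraries in the same way. The 4 fibroblast markers summed to 422 and 264 FPKM in wild-type 1 and 2, to 162 and 160 FPKM in wild-type 3 and 4, and to 156 to 266 FPKM in K320E-skm libraries, and the macrophage markers given above were also higher in wild-type 1 and 2 than in wild-type 3 and 4. The part of any of these cells in the levels of Slc25a1 and Slc25a10 was not tested. The log2 fold changes of Slc25a1 and Slc25a10 were −0.13 (SE 0.20) and −0.01 (SE 0.19). The oxodicarboxylate carrier Slc25a21 was not tested, with at most 0.0653 FPKM in K320E-skm and at most 0.231 FPKM in wild-type libraries.

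Among the amino acid carriers 6 of 9 were tested and none had an unadjusted p under 0.05. The most abundant, Slc25a12 (ENSMUSG00000027010, chromosome 2, 71271063 to 71367749), exchanges aspartate for glutamate in the same shuttle. It was at 69.8, 99.2, 88.4 and 102 FPKM across K320E-skm 1 to 4, and at 101.1, 72.9, 94.9 and 107 FPKM across wild-type 1 to 4. The genotypes overlapped (log2 fold change −0.07, SE 0.18, limma adjusted p = 0.876), and after median-ratio rescaling the log2 fold change was 0.11. Its paralog Slc25a13, the liver form, averaged only 0.230 ± 0.0986 FPKM over the K320E-skm libraries, against 0.242 ± 0.0569 FPKM over the wild-type libraries (SD, n = 4 each) and was not tested.

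Slc25a22, a glutamate carrier, had the largest log2 fold change of the amino acid carriers and is described after its values were seen. It was at 2.66, 4.21, 4.96 and 2.14 FPKM across K320E-skm 1 to 4, and at 3.28, 1.71, 2.08 and 2.46 FPKM across wild-type 1 to 4. Only K320E-skm 2 and 3 lay above every wild-type library. The log2 fold change was 0.38 (SE 0.22, unadjusted p = 0.108), and 0.52 (SE 0.19, unadjusted p = 0.0279, limma adjusted p = 0.451) after median-ratio rescaling. With deposited values and 1 library left out, the unadjusted p was 0.0422 without K320E-skm 4 and 0.0152 without wild-type 1, and 0.117 to 0.323 without each of the other 6 libraries. The log2 fold change was 0.25 without K320E-skm 3 and 0.22 without wild-type 2, against 0.57 without wild-type 1. The other glutamate carrier, Slc25a18, averaged 0.118 ± 0.0246 FPKM for K320E-skm and 0.0916 ± 0.0312 FPKM for wild-type (SD, n = 4 each). Its span overlaps that of the abundant Atp6v1e1 on the opposite strand by 32 bases.

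None of the remaining amino acid carriers had an unadjusted p under 0.05. Slc25a44, a carrier of branched-chain amino acids, was at 3.88 ± 0.169 FPKM over the K320E-skm libraries, against 4.40 ± 0.697 FPKM over the wild-type libraries, with a log2 fold change of −0.14 (SE 0.13). Slc25a38, which brings glycine into the matrix for haem synthesis, was at −0.05 (SE 0.13), Slc25a15, the ornithine carrier of the urea cycle, at −0.07 (SE 0.13), and Slc25a29, a carrier of basic amino acids, at −0.18 (SE 0.13). The second ornithine carrier, Slc25a2, was at most at 0.130 FPKM in K320E-skm and at most at 0.216 FPKM in wild-type libraries.

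All 7 cofactor carriers in the table were tested, none had an unadjusted p under 0.05, and their median log2 fold change was −0.12, close to that of all tested genes. Slc25a51, which imports NAD, was the most abundant, at 10.98, 12.6, 11.5 and 14.4 FPKM across K320E-skm 1 to 4 and 16.2, 12.0, 13.4 and 12.4 FPKM across wild-type 1 to 4. Its log2 fold change was −0.12 (SE 0.13, limma adjusted p = 0.695), and 0.05 after median-ratio rescaling. Slc25a32, which carries folate and FAD, was at 1.68, 1.73, 1.46 and 1.62 FPKM across K320E-skm 1 to 4 and 2.11, 1.63, 1.66 and 1.51 FPKM across wild-type 1 to 4. This carrier brings folate to mitochondrial one-carbon metabolism, and its log2 fold change was −0.05 (SE 0.11). Slc25a26, the carrier of S-adenosylmethionine, was at −0.11 (SE 0.17), Slc25a42, which imports coenzyme A, at −0.13 (SE 0.14), Slc25a16 at −0.15 (SE 0.18) and the peroxisomal carrier Slc25a17 at 0.05 (SE 0.17).

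The 4 iron and glutathione carriers were all tested. At an unadjusted p under 0.05, 1 was higher, where 1.12% of all tested genes were as deposited and 5.19% after median-ratio rescaling. Slc25a39 (ENSMUSG00000018677, chromosome 11, 102402985 to 102407946), which imports glutathione, the main thiol antioxidant, was at 19.6, 19.3, 21.5 and 14.3 FPKM across K320E-skm 1 to 4, and at 14.8, 15.4, 14.3 and 12.8 FPKM across wild-type 1 to 4. As with Slc25a5, K320E-skm 1, 2 and 3 lay above every wild-type library and K320E-skm 4 lay among them. Means were 18.7 ± 3.05 FPKM for K320E-skm and 14.3 ± 1.11 FPKM for wild-type (SD, n = 4 each), a ratio of 1.30. The log2 fold change was 0.35 (SE 0.14, unadjusted p = 0.0382, limma adjusted p = 0.363), and the exact permutation p was 0.114. Without K320E-skm 4 the log2 fold change was 0.46 (SE 0.14, limma adjusted p = 0.370). K320E-skm 4 also had the lowest macrophage marker sum of its genotype. In wild-type muscle the highest such sum was in wild-type 1, and the highest Slc25a39 was in wild-type 2. The part of macrophages in the Slc25a39 difference was not tested. The unadjusted p did not stay under 0.05 without K320E-skm 1, 2 or 3 or wild-type 2, 3 or 4, where it ranged from 0.0528 to 0.132.

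Slc25a40, the paralog of Slc25a39, was far lower in level and its mean difference had the opposite sign, at 0.919 ± 0.491 FPKM over the K320E-skm libraries, against 1.197 ± 0.187 FPKM over the wild-type libraries (log2 fold change −0.22, SE 0.16). Its values were 1.64, 0.520, 0.751 and 0.769 FPKM across K320E-skm 1 to 4, so that 1 library lay above and 3 below all wild-type libraries, which were at 1.41, 1.18, 0.959 and 1.23 FPKM. Without K320E-skm 1 its log2 fold change was −0.38 (SE 0.14, unadjusted p = 0.026, limma adjusted p = 0.636), with no overlap. The mitoferrins bring iron into the matrix for haem and iron-sulphur clusters. Slc25a28, the form of non-erythroid tissues, averaged 8.30 ± 1.24 FPKM over the K320E-skm libraries, against 8.77 ± 1.59 FPKM over the wild-type libraries, and Slc25a37, the erythroid form, 1.66 ± 0.230 FPKM for K320E-skm and 2.02 ± 0.108 FPKM for wild-type (SD, n = 4 each). For Slc25a37 the log2 fold change was −0.19 (SE 0.11, unadjusted p = 0.124), and without K320E-skm 3 the genotypes did not overlap. The 6 erythroid markers summed to 133 to 279 FPKM over the K320E-skm libraries, against 222 to 370 FPKM over the wild-type libraries, and the part of blood cells in the Slc25a37 level was not tested.

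Of the 3 carriers related to uncoupling proteins, 2 were tested. At an unadjusted p under 0.05, 1 was lower, where 12.0% of all tested genes were. Slc25a27 (ENSMUSG00000023912, chromosome 17, 43641891 to 43667214), also called UCP4 and known mainly from brain, was at 1.13, 1.11, 1.15 and 1.31 FPKM across K320E-skm 1 to 4, and at 1.65, 1.79, 1.82 and 1.32 FPKM across wild-type 1 to 4. It was the only tested member whose genotypes did not overlap, where 9.59% of all tested genes lay lower without overlap. Its values in K320E-skm 4 and wild-type 4 lay side by side. Means were 1.18 ± 0.0899 FPKM for K320E-skm and 1.65 ± 0.232 FPKM for wild-type (SD, n = 4 each). The log2 fold change was −0.28 (SE 0.11, unadjusted p = 0.0340, limma adjusted p = 0.358), with an exact permutation p of 0.0286, the smallest possible. After median-ratio rescaling it was −0.17 (SE 0.10, unadjusted p = 0.136), and the genotypes overlapped. Without K320E-skm 1, 2, 3 or 4 or wild-type 2 or 3 the unadjusted p was over 0.05, from 0.0554 to 0.107, although the genotypes still did not overlap. Relative to the median of all tested genes the deposited value was −0.14. Slc25a30, the kidney mitochondrial carrier, was at 0.14 (SE 0.16), and Slc25a14 was not tested, at 0.303 to 0.379 FPKM over the K320E-skm libraries, against 0.346 to 0.724 FPKM over the wild-type libraries.

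**Figure D3:**
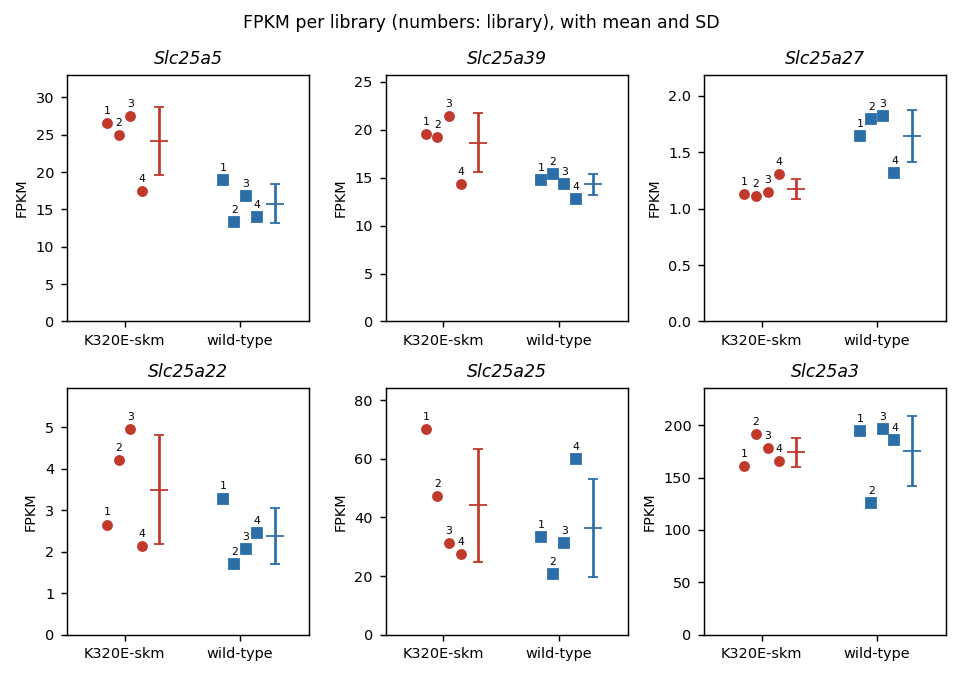
FPKM per library for 6 carriers, with K320E-skm circles on the left of each panel and wild-type squares on the right, numbered by library, and the mean with SD beside each group (n = 4). K320E-skm 4 sits at the lower edge of its group for Slc25a5, Slc25a39 and Slc25a22 and at the upper edge for Slc25a27, and wild-type 2 sits far below the other libraries for Slc25a3.

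Among the 9 carriers of other or little known role, 4 were tested and none had an unadjusted p under 0.05. Slc25a46, an outer membrane protein that takes part in mitochondrial fusion and lipid transfer, was at 5.49, 7.03, 6.12 and 6.75 FPKM across K320E-skm 1 to 4 and 8.89, 7.48, 5.93 and 6.86 FPKM across wild-type 1 to 4 (log2 fold change −0.17, SE 0.14, limma adjusted p = 0.604). Slc25a34, without an agreed substrate, was at 2.87, 4.94, 8.74 and 4.74 FPKM across K320E-skm 1 to 4 and 3.95, 3.80, 3.04 and 5.38 FPKM across wild-type 1 to 4, with a log2 fold change of 0.27 (SE 0.21). The single high value was in K320E-skm 3. That library also had the highest sum of the 5 slow fibre markers, 98.4 FPKM, where the other K320E-skm libraries had 29.7 to 32.9 FPKM and wild-type libraries 7.92 to 63.4 FPKM. The part of slow fibres in the Slc25a34 value was not tested. Its relative Slc25a35 was at −0.09 (SE 0.12) and the carrier Slc25a47, known from liver, at −0.10 (SE 0.18). The span of Slc25a35 overlaps that of Rangrf, which averaged 16.6 FPKM, by 1882 bases on the opposite strand.

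The filter kept Slc25a24, Slc25a40 and Slc25a47 with exactly 4 libraries at 1 FPKM or more, and none of the 3 through 1 genotype alone. Just below it lay Slc25a45 and Slc25a53, each with 1 such library. Slc25a45 was at 0.533 to 0.925 FPKM over the K320E-skm libraries, against 0.371 to 1.09 FPKM over the wild-type libraries, and Slc25a53 at 0.344 to 0.624 FPKM for K320E-skm and 0.342 to 1.09 FPKM for wild-type. Of the 12 untested members, 6 averaged under 0.1 FPKM over all 8 libraries. Slc25a43, Slc25a48 and Slc25a54 were among these, and none of them exceeded 0.0657 FPKM in a K320E-skm library or 0.0581 FPKM in a wild-type library. Slc25a54 was listed at 0 in every wild-type library.

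A pair of wild-type libraries often lay at an extreme among the members. In 15 of the 31 tested members wild-type 1 was the highest of the 8 libraries, and in 8 members wild-type 2 was the lowest. The same counts were not made over all tested genes, so they cannot be read as particular to the family. Wild-type 1 was also high over the tested genes as a whole. Its median-ratio factor was 1.28, where those of the other libraries were 0.905 to 1.04. Leaving out wild-type 1 gave a median log2 fold change of 0.00 over the members, against −0.06 over all tested genes, and leaving out wild-type 2 gave −0.12, against −0.15. Without K320E-skm 4, 2 members lay higher without overlap, Slc25a5 and Slc25a39, where 1.28% of all tested genes did. Log2 fold changes that also moved by over 0.1 without this library included 0.51 for Slc25a25 (SE 0.36), −0.27 for Slc25a47 (SE 0.15), −0.30 for Slc25a23 (SE 0.18), 0.28 for Slc25a30 (SE 0.15), 0.18 for Slc25a17 (SE 0.16) and 0.52 for Slc25a22 (SE 0.22). Slc25a47 reached 1 FPKM in no other K320E-skm library. Slc25a28 was at 0.0090 without it, the reverse of its sign with it. In 18 of 31 members the highest library was less than 2-fold above the lowest, and the ranges ran from 1.44-fold to 3.38-fold. The ranges of all tested genes were not counted.

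**Figure D4:**
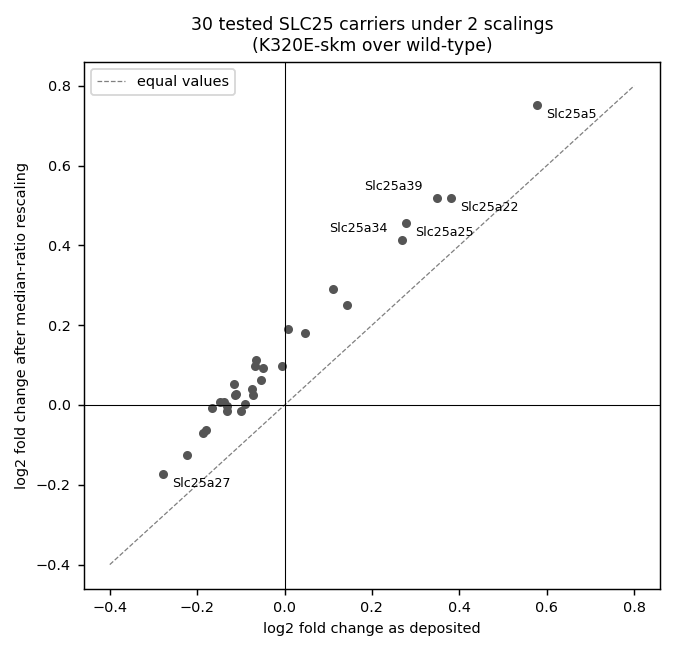
Log2 fold change of 30 tested carriers (K320E-skm over wild-type, log2(FPKM + 1) scale) as deposited on the horizontal axis and after median-ratio rescaling on the vertical axis, with a dashed line of equal values. All points lie above the line, with Slc25a5 at 0.58 as deposited and 0.75 after rescaling, and Slc25a27 at −0.28 and −0.17.

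Genes that work beside the SLC25 carriers were counted in 4 lists. Of the 5 family relatives with other names, 4 were tested. At an unadjusted p under 0.05, 1 was higher, where 1.12% of all tested genes were. This was Ucp3, the uncoupling protein of muscle, at 58.0 ± 21.0 FPKM over the K320E-skm libraries, against 31.9 ± 8.82 FPKM over the wild-type libraries (n = 4 each, log2 fold change 0.81, SE 0.16, limma adjusted p = 0.294). For Ucp3 the genotypes overlapped, with K320E-skm 1 at 35.0 FPKM and wild-type 2 and 4 at 40.7 and 36.9 FPKM. Its exact permutation p was 0.0857. Ucp2 was at 0.33 (SE 0.18), and the insertase Mtch2 and its relative Mtch1 were at −0.08 and 0.02. Of 18 other inner membrane transporters, 17 were in the table and 13 were tested. At an unadjusted p under 0.05, 0 were higher and 2 were lower, where 1.12% of all tested genes were higher and 12.0% lower. These were Micu3, a regulator of the calcium uniporter, at 3.73 ± 0.381 FPKM over the K320E-skm libraries, against 5.49 ± 0.786 FPKM over the wild-type libraries (log2 fold change −0.45, SE 0.13, limma adjusted p = 0.310), and the sideroflexin Sfxn3 at −0.29 (SE 0.13, limma adjusted p = 0.377). The pyruvate carrier subunits Mpc1 and Mpc2 were at −0.16 and −0.13.

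As deposited, all 3 outer membrane channels were below 0, as were 79.5% of all tested genes, with Vdac1, the most abundant, at 234 ± 26.0 FPKM over the K320E-skm libraries, against 291 ± 28.3 FPKM over the wild-type libraries (log2 fold change −0.31, SE 0.15, limma adjusted p = 0.407), and none had an unadjusted p under 0.05. Vdac2 lay lower without overlap, as did 9.59% of all tested genes, at 95.4 ± 1.99 FPKM over the K320E-skm libraries, against 105.7 ± 7.52 FPKM over the wild-type libraries (log2 fold change −0.14, SE 0.12). Relative to the median gene, the log2 fold changes were −0.17 for Vdac1, −0.0032 for Vdac2 and −0.067 for Vdac3. Of 16 genes of the route by which carriers are imported into the inner membrane, 15 were tested, with a median log2 fold change of −0.08. In this list 0 were higher and 1 was lower at an unadjusted p under 0.05, the translocase subunit Timm29, at 6.31 ± 0.797 FPKM over the K320E-skm libraries, against 8.09 ± 0.944 FPKM over the wild-type libraries (log2 fold change −0.31, SE 0.13, limma adjusted p = 0.363). Over all tested genes 12.0% were lower at that p. Tomm70a, the receptor for carrier precursors, was at −0.13, and the small chaperones Timm9 and Timm10 at −0.19 and 0.19. No gene of the 4 lists passed the adjusted threshold.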

How the data were processed

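RNA of 8 muscle samples was made into stranded libraries, per the labels' protocols. The authors deposited FPKM per gene, made with CASAVA, TopHat2 2.0.10 and Cufflinks 2.1.1 on mm10 according to the submitters' processing notes. The annotation and strand setting they used are not stated there. FPKM depend on all other fragments of a library, and fragments may be split between paralogs or overlapping genes. Of the table's columns, 0 could not be matched to a sample, and no libraries were identical.

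GENCODE M21 (GRCm38) gave symbols for 47950 of 48328 IDs. Genes at 1 FPKM or above in 4 or more libraries were fitted as log2(FPKM + 1) in limma 3.58.1 (R 4.3.3), with sex label and genotype as terms, a trended prior, a two-sided test and Benjamini-Hochberg adjustment over 10521 genes at 0.05. The pseudocount lowers fold changes of low genes. Group means were compared by exact two-sided permutation (70 assignments). The fit was tested on simulated data. Tables and plots used pandas 2.3.3 and matplotlib 3.10.9. Interaction with sex was not tested, since 1 sex label goes against its library. Fits with the sex term entered K320E-skm 4 as male, its label, and no fit used the sex that its transcripts show. Nothing in the labels says how samples relate, so the p-values cover only the spread among these samples, which may be technical.

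Members, lists and tests were chosen with earlier results of these data known. Values per library are given for members with an unadjusted p under 0.05 or no overlap, the 5 most abundant and the most abundant of each role. From the related lists, genes with an unadjusted p under 0.05 or otherwise the 2 most abundant are named. Slc25a1, Slc25a10, Slc25a22, Slc25a32, Slc25a34, Slc25a40, Ucp2, Mtch1, Mtch2, Mpc1, Mpc2, Vdac2, Tomm70a, Timm9 and Timm10 were added after their values were seen. Other settings tried were 3 rescalings, a filter of 5 FPKM or none, 0.1 as pseudocount, no sex term, a replicate block, robust priors, protein-coding genes alone and each library left out. Rescaling to the nuclear protein-coding sum was chosen after seeing the data. Counts and medians cover all 31 tested members; values of 1 of them are not reported here, and the plots show the other 30.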

Additional observations from a re-analysis of the deposited data

Results flagged for a closer look

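In 2 of 62 groups of 4 libraries, 1 library lay far from the other 3 of its genotype, where chance alone flags about 1 group in 20. Slc25a3, the phosphate carrier, was at 126 FPKM in wild-type 2, against 186 to 196 FPKM in the other wild-type libraries. Slc25a15, the ornithine carrier, was at 1.55 FPKM in wild-type 2, against 1.94 to 1.99 FPKM in the others. The adipocyte markers summed to 43.0 FPKM in wild-type 2 and to 36.3 FPKM in wild-type 1, where Slc25a3 was at 194 FPKM and Slc25a15 at 1.97 FPKM. The part of adipocytes in the 2 low values was not tested.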

How the results depend on the processing

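No SLC25 member passed the adjusted threshold under any of the 18 alternatives. The number higher at an unadjusted p under 0.05 was 2 as deposited, 2 or 3 under every alternative that kept all libraries, and 1 to 3 when a library was left out, with 1 without K320E-skm 1, 2 or 3 or wild-type 2, 3 or 4. The number lower, 1 as deposited, was 0 after median-ratio rescaling, quantile normalization and rescaling to the nuclear protein-coding sum, 0 with a filter of 5 FPKM, which leaves Slc25a27 untested, and 0 to 1 when a library was left out, with 0 without K320E-skm 2, 3 or 4 or wild-type 2 or 3; without K320E-skm 1 the 1 was Slc25a40. Members higher without overlap numbered 2 after median-ratio rescaling and quantile normalization, 1 after rescaling to the nuclear protein-coding sum, and 0 to 2 without a library. Members lower without overlap numbered 0 under these 3 rescalings and with the filter of 5 FPKM, and 1 to 2 without a library, where Slc25a40 joined without K320E-skm 1 and Slc25a37 without K320E-skm 3. Apart from the shares given above, the share of all tested genes was not taken for these alternatives. Their counts can therefore not be read as results about the members. Genes higher without overlap were 0.333% of all tested genes as deposited and 1.28% without K320E-skm 4. The median log2 fold change of the members was 0.040 after median-ratio rescaling and 0.039 after rescaling to the nuclear protein-coding sum. Of 9 members named by rule, 4 kept their sign throughout. Slc25a12 was at 0.11, 0.028 and 0.11 and Slc25a51 at 0.053, 0.033 and 0.046 after median-ratio, quantile and nuclear protein-coding rescaling. Without 1 library, Slc25a3 ranged from −0.16 to 0.069, Slc25a11 from −0.090 to 0.25, Slc25a12 from −0.21 to 0.071 and Slc25a25 from −0.016 to 0.61. The cause of these changes was not tested.

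Without the term for sex, the unadjusted limma p was 0.00694 for Slc25a5, 0.0305 for Slc25a39 and 0.0243 for Slc25a27. Their limma adjusted p was 0.279, 0.308 and 0.298. When a replicate block replaced the term for sex, 2 members were higher and 0 lower at an unadjusted p under 0.05. Deviations of libraries with the same number in both genotypes correlated at 0.02 to 0.16, and only number 1 was above 0.1. Differently numbered libraries were not compared, so whether the numbers pair the libraries cannot be told. The depth is unknown, so the counting error of members near 1 FPKM could not be given.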
